A study of Mus musculus with 371 samples.

Results

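The cells described here were the 81 CD4-sort cells from B16F10 melanoma tumours that had Foxp3 at 1 FPKM or above (FPKM, fragments per kilobase of transcript, scaled to sequencing depth). They were chosen on that value alone, among the 85 WT and 89 KO-labelled CD4-sort cells in which 1000 or more genes reached 1 FPKM. This filter kept 350 cells of both sorts. WT tumours gave 46 of the 81 Foxp3 positive cells. Tumours of mice labelled as knockout for Il27ra, the IL-27 receptor alpha chain (KO-labelled below), gave 35. The other 93 CD4-sort cells, 39 WT and 54 KO-labelled, had Foxp3 below 1 FPKM and are called Foxp3 negative.

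The study sorted single CD4 and CD8 T cells from tumours of the transplantable B16F10 melanoma line grown in C57BL/6 mice, WT or IL27raKO, and profiled each cell by Smart-seq2, which makes full-length cDNA from 1 cell. Its stated subject is which T cell genes IL-27 induces inside the tumour. Each of the 4 groups (WT and KO-labelled, CD4 and CD8 sort) is 1 sorted pool under 1 name, so cells are not replicates and pool and genotype cannot be told apart. No test between groups was made, and the differences below are values that describe these pools. The labels name no drug or other agent, and the number of mice behind a pool is not given in the sources used here.

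Foxp3 is the transcription factor that sets and keeps the program of regulatory T cells, the CD4 T cells that restrain other immune cells. These cells depend on interleukin-2 from neighbours, which they take up through the high-affinity receptor with the alpha chain Il2ra (CD25). They act through surface molecules such as Ctla4, through cytokines such as Il10, and through granzymes. In tumours they are known for an activated state with high Ctla4, Tigit and receptors of the tumour necrosis factor (TNF) receptor family. IL-27 is a cytokine read through Il27ra and gp130 (Il6st), with signals through Stat3 among others.

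Foxp3 split the CD4 sort with almost no values in between. Among WT cells 46 of 85 were positive (54.1%, exact Clopper-Pearson 95% interval 43% to 65%) and among KO-labelled cells 35 of 89 (39.3%, 29.1% to 50.3%). These intervals cover counting error only. Foxp3 in WT positive cells ran from 9.65 to 1472 FPKM with a median of 502, and in KO-labelled positive cells from 16.3 to 2001 FPKM with a median of 649. The next lowest positive values were 15.3 FPKM in WT and 27.8 FPKM in KO-labelled cells. Below the threshold lay 1 KO-labelled cell at 0.67 FPKM, and the remaining 39 WT and 53 KO-labelled cells were listed at 0. A Foxp3 negative cell is therefore one in which Foxp3 was not detected, which is not proof of its absence. The filter on detected genes had removed 13 CD4-sort cells, of which 2, both WT, had Foxp3, at 539 and 610.3 FPKM.

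**Figure D1:**
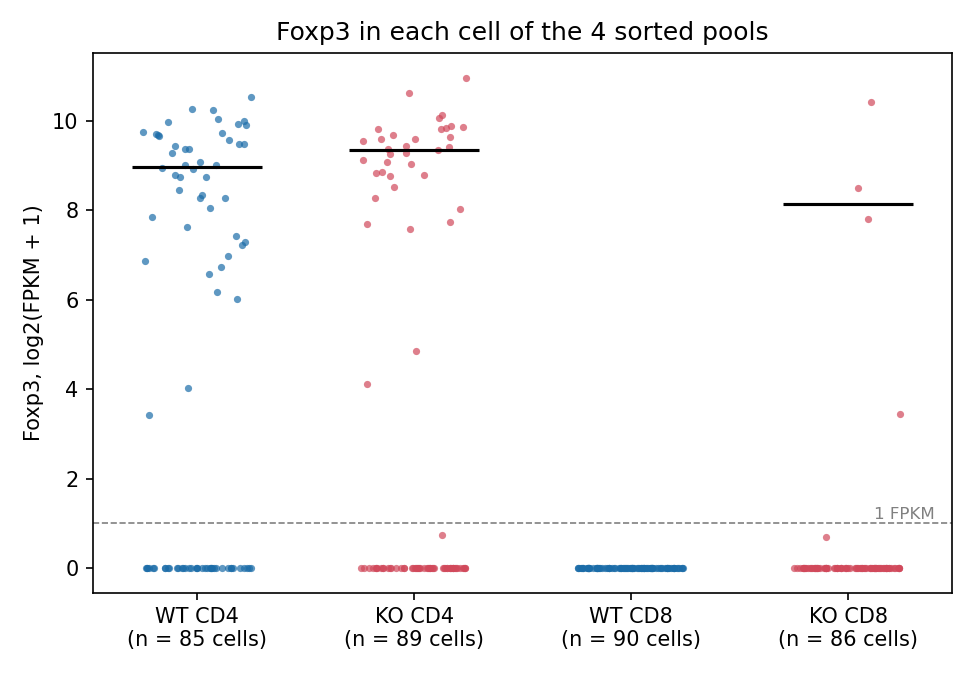
Foxp3 as log2(FPKM + 1), 1 point a cell, in the 4 sorted pools, with a line at the median of the cells at 1 FPKM or above. The positive cells of both CD4 pools stand apart from the cells at 0, and 4 of 86 KO-labelled CD8-sort cells had Foxp3 against 0 of 90 WT CD8-sort cells.

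In the CD8 sort, used here as the background of the same measure, 0 of 90 WT cells had Foxp3, which allows a share of up to 3.33%, and 4 of 86 KO-labelled cells did (4.65%, 1.28% to 11.5%). These 4 cells had from 9.83 to 1370.0 FPKM, and all 4 were listed at 0 for Cd4. They are not among the 81 cells. Each sample title also carries a p number, which differs between the CD4 and CD8 sorts, so sort and this label cannot be told apart.

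The promoters of genes that differed between Foxp3 positive and negative cells were read from RefSeq (GRCm38.p6, the build mm10), as windows of 250 bases before to 50 bases after each annotated start. The 3 printed windows were picked after the matches were seen, because each holds TTCNNNGAA, the pattern that STAT factors of the IL-2 and IL-27 pathways bind. Capitals mark that match in the second window of Foxp3, in Gzmb (granzyme B) and in Tnfrsf18 (GITR). They are written 5′ to 3′ in the direction of the gene.

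Foxp3, chrX:7580233-7580532, plus strand: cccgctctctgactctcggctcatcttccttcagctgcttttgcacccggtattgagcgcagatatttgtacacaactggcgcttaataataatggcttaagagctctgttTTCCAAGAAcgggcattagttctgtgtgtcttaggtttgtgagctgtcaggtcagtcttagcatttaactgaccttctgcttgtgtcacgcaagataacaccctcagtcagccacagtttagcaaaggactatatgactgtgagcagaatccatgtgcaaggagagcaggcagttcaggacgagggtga

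Gzmb, chr14:56262285-56262584, minus strand: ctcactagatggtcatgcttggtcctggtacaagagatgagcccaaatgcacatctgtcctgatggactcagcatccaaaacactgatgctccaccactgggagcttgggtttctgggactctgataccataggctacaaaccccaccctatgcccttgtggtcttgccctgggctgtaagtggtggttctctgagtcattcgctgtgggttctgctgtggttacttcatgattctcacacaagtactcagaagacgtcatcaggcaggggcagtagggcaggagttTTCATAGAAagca

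Tnfrsf18, chr4:156026072-156026371, plus strand: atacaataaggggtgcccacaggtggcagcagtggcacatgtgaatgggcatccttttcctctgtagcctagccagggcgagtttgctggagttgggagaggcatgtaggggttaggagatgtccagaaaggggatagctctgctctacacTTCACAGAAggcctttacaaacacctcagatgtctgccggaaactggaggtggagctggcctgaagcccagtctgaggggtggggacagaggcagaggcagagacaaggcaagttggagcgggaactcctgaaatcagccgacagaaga

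The search covered both strands for TTCNNNGAA and for the forkhead pattern TGTTTAC, and the patterns do not overlap each other in the printed windows. Of the 15 genes that ranked highest in Foxp3 positive over negative cells, 14 matched the RefSeq table by symbol, with 16 windows. TTCNNNGAA was found in 5 of these 16 windows (Tnfrsf9, Gzmb, Tnfrsf18, Tnfrsf1b and Fgl2), against 8.30% of all 32851 windows, and TGTTTAC in 0 of 16, against 3.65% of all windows. Foxp3 itself had 2 windows, of which 1 held TTCNNNGAA. A match is a description of letters, not a binding site, and no match says only that these letters are not in the window. The 15 genes were picked by their difference in these cells, so the count carries no test.

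The label of regulatory T cell was checked against 5 markers that the rule did not use. Ctla4 (a brake that binds CD80 and CD86), Tnfrsf4 (OX40), Tnfrsf18 (GITR), Tnfrsf9 (4-1BB) and Ikzf2 (Helios) were present together, at 4 or more of 5, in 40 of 46 WT (87.0%) and 30 of 35 KO-labelled (85.7%) positive cells, against 2 of 39 (5.13%) and 5 of 54 (9.26%) negative cells. All 5 were present in 23 of 46 and 22 of 35 positive cells, against 0 of 39, which allows a share of up to 7.69%, and 1 of 54 (1.85%). The data therefore bear out the label for most of the 81 cells. Of the positive cells, 2 WT and 0 KO-labelled cells had fewer than 2 of the 5 markers. Cd4 was detected in 40 of 46 and 33 of 35 positive cells and Cd8a in 1 of 46 and 0 of 35, while Cd8b1, the beta chain of CD8, was detected in 12 of 46 and 9 of 35.

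Depth differed with Foxp3 and with genotype. WT positive cells had a median of 1884 detected genes (1 FPKM or above) and WT negative cells of 1547, against 2152 and 1747 in KO-labelled cells. The 6 cells with over 4000 genes were all Foxp3 positive (2 WT, 4 KO-labelled), and no doublet caller was used. Markers of another cell type (at least 2 of a list, or 1 of Cd8a and Cd8b1, at 10 FPKM or above) were carried by 10 WT and 8 KO-labelled positive cells and by 5 and 12 negative cells. Of 5 B cell markers, 0 were detected in WT and 1 in KO-labelled positive cells, and of 12 macrophage markers 8 and 7, with a median summed level of 0 in both. Of 9 dendritic cell and MHC class II markers 8 and 7 were detected, with median summed levels of 15.96 and 37.8 FPKM in positive and 0.53 and 0.575 FPKM in negative cells. Among them Cd74, the chaperone of MHC class II, differed by 2.56 (WT) and 2.76 (KO-labelled) between positive and negative cells. Values after weighting are therefore given beside many results: cells were put into 4 strata by detected genes, and differences were averaged over the strata. This evens out detected genes only within quartiles. Read depth is not in the table, and detected genes can also vary with the state of a cell. How far depth and cells of another type enter a difference was not tested beyond these values.

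Against Foxp3 negative cells, the positive cells had a higher mean for 522 of 5138 measured genes (10.2%) and a lower mean for 51 (0.993%), by at least 1 on the log2(FPKM + 1) scale in both pools. A gene is measured when 20% of the cells of any of the 4 subsets had it at 1 FPKM or above, and Foxp3 is left out. Of these genes 4893 reached this share in the positive cells of a pool and 3426 in the negative cells of a pool. A gene that passed through positive cells alone lies near 0 in negative cells and could hardly count as lower. Over all measured genes the median difference was 0.33 in WT and 0.55 in KO-labelled cells, so most genes leaned to the positive side. After weighting 3.64% were higher and 2.55% lower, so that 58.8% of the genes past 1 were higher, against 91.1% without the weighting, and the medians were 0.04 and 0.15. Lists of genes are read against these values below.

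**Figure D2:**
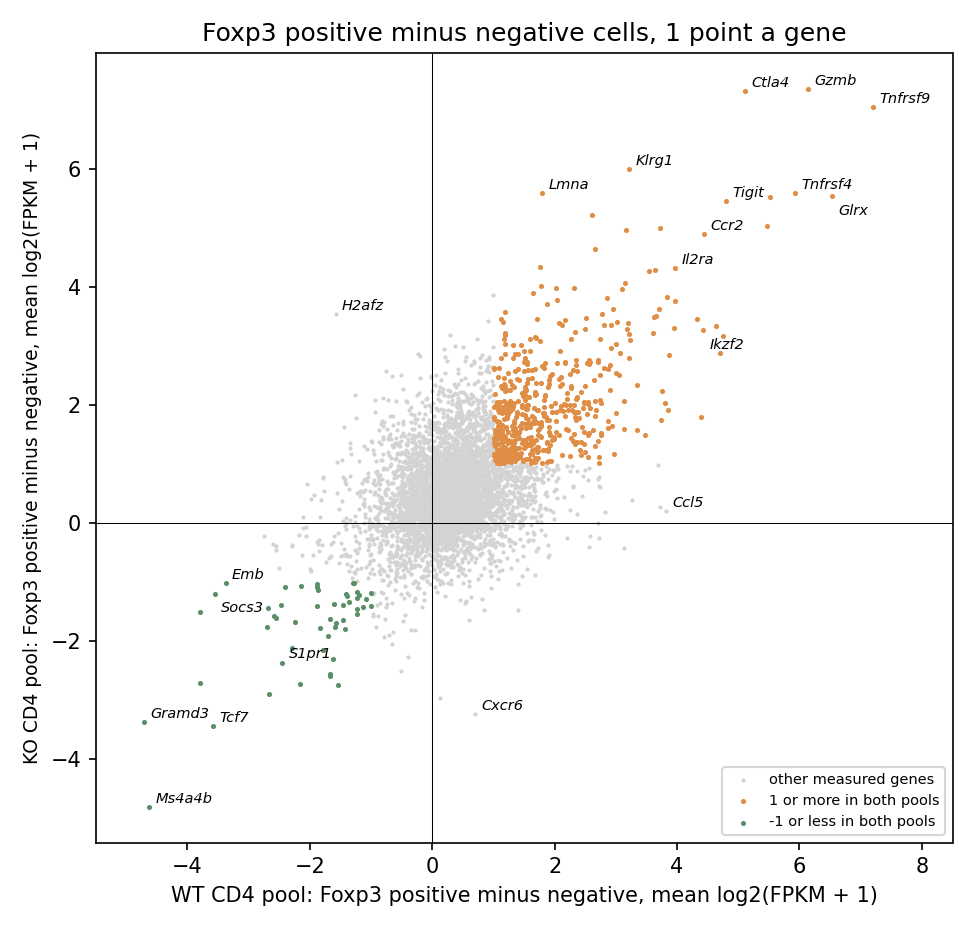
Difference of mean log2(FPKM + 1), Foxp3 positive minus negative cells, in the WT pool (x axis) and the KO-labelled pool (y axis), 1 point a measured gene without Foxp3. Tnfrsf9, Gzmb and Ctla4 lie above 5 in both pools and Ms4a4b below -4 in both, while Ccl5 lies far to one side in WT only and Cxcr6 in KO only.

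Regulatory T cell identity genes were the list with the highest medians: 11 higher and 0 lower of 12 measured genes, medians 4.20 (WT) and 3.85 (KO-labelled), against 522 of 5138 of all genes. Il2ra, the CD25 chain, was present in 82.6% against 5.13% of WT cells and 82.9% against 11.1% of KO-labelled cells. In WT cells Il2ra ran from 0 to 379.01 FPKM with a median of 21.8 in the Foxp3 positive cells and from 0 to 2.54 FPKM with a median of 0 in the negative cells. In KO-labelled cells it ran from 0 to 529.7 FPKM with a median of 61.2 and from 0 to 93.1 FPKM with a median of 0. Negative cells were mostly at 0, yet positive cells reached down to 0 as well. The difference was 3.97 (WT) and 4.32 (KO-labelled) and 3.75 and 4.26 after weighting. Ikzf2, a zinc finger factor that steadies the Foxp3 program, was present in 82.6% against 10.3% of WT cells and 74.3% against 7.41% of KO-labelled cells, with differences of 4.42 (WT) and 3.27 (KO-labelled). Its relative Ikzf4 (Eos) differed by 1.99 (WT) and 1.46 (KO-labelled) and was detected in fewer cells, 34.8% of WT and 31.4% of KO-labelled positive cells. Lrrc32 (GARP, which docks latent TGF-beta on the cell surface) was present in 45.7% against 2.56% of WT cells and 42.9% against 1.85% of KO-labelled cells. Folr4 (now Izumo1r, folate receptor 4) differed by 3.24 (WT) and 3.11 (KO-labelled), Capg (an actin-capping protein) by 5.52 (WT) and 5.53 (KO-labelled), and Itgae (CD103, which binds E-cadherin) by 2.06 (WT) and 3.38 (KO-labelled). The exception was Nrp1 (neuropilin-1), often used as a mark of thymus-derived regulatory T cells, with differences of -0.27 (WT) and 0.62 (KO-labelled), and it was present in 9 of 46 and 11 of 35 positive cells. Outside the list, Glrx, a glutaredoxin that removes glutathione from proteins, was among the highest, by 6.53 (WT) and 5.54 (KO-labelled).

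Receptors of the TNF family and co-stimulatory receptors counted 7 higher and 1 lower of 13 measured genes. Tnfrsf9 (4-1BB), a receptor that appears on recently activated T cells, ranked first by the smaller of its 2 pool differences. The ranking covered measured genes other than predicted genes, pseudogenes and receptor gene segments. In WT cells Tnfrsf9 ran from 0 to 4369.9 FPKM with a median of 846 in the Foxp3 positive cells and from 0 to 666 FPKM with a median of 0 in the negative cells. In KO-labelled cells it ran from 0 to 6231 FPKM with a median of 1276 and from 0 to 2211 FPKM with a median of 0. Most positive cells lay far above 0 and most negative cells at 0, with overlap at 0. The differences were 7.21 (WT) and 7.05 (KO-labelled). Tnfrsf4 differed by 5.93 (WT) and 5.59 (KO-labelled), Tnfrsf18 by 5.47 (WT) and 5.03 (KO-labelled), and Tnfrsf1b (TNF receptor 2) by 3.97 (WT) and 3.76 (KO-labelled). Negative cells often had Tnfrsf18, at 43.6% (WT) and 53.7% (KO-labelled). Cd27, Icos and the adhesion receptor Cd2 were also higher, by 3.60 (WT) and 3.23 (KO-labelled) for Cd27, 2.91 (WT) and 2.26 (KO-labelled) for Icos and 3.66 (WT) and 3.52 (KO-labelled) for Cd2. The 1 lower gene was Cd40lg, the ligand by which helper T cells activate B cells and dendritic cells, at -1.67 (WT) and -2.59 (KO-labelled), present in 6.52% against 28.2% of WT cells and 11.4% against 48.1% of KO-labelled cells. Cd28, the main co-stimulatory receptor, differed by -0.28 (WT) and -0.98 (KO-labelled).

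Co-inhibitory receptors counted 5 higher and 0 lower of 11. Ctla4 was present in 87% against 46.2% of WT cells and 100% against 40.7% of KO-labelled cells. In WT cells Ctla4 ran from 0 to 4809 FPKM with a median of 1176 in the Foxp3 positive cells and from 0 to 2430 FPKM with a median of 0 in the negative cells. In KO-labelled cells it ran from 143.7 to 4885 FPKM with a median of 1649 and from 0 to 2867 FPKM with a median of 0. All 35 KO-labelled positive cells had it, while the median negative cell of each pool was at 0. The differences were 5.12 (WT) and 7.32 (KO-labelled). Tigit, which competes with Cd226 for CD155, differed by 4.80 (WT) and 5.46 (KO-labelled), while Cd226 itself differed by -0.96 (WT) and -1.54 (KO-labelled). Lag3, a receptor for MHC class II, was close to absent in negative cells (1 of 39 WT, 3 of 54 KO-labelled) and present in 26 of 46 and 16 of 35 positive cells, with differences of 4.63 (WT) and 3.34 (KO-labelled). Havcr2 (Tim-3) differed by 2.96 (WT) and 1.16 (KO-labelled), with 2.71 and 0.74 after weighting, and Cd200r1 by 1.41 (WT) and 2.61 (KO-labelled). Pdcd1 (PD-1) did not pass in both pools, at 0.64 (WT) and 2.18 (KO-labelled), and was present in 43.5% against 33.3% of WT cells and 51.4% against 27.8% of KO-labelled cells.

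Genes through which regulatory T cells act counted 10 higher and 0 lower of 13, medians 3.22 (WT) and 3.12 (KO-labelled), and 10 higher after weighting. Of these 13 genes only 3 reached 20% of the negative cells of a pool. The others passed through positive cells alone, so the filter itself left them little room to be lower. Gzmb, the protease of cytotoxic granules whose promoter window is among the 3 printed, was present in 63% against 5.13% of WT cells and 77.1% against 9.26% of KO-labelled cells. The exact intervals in positive cells were 47.5% to 76.8% and 59.9% to 89.6%. In WT cells Gzmb ran from 0 to 7742 FPKM with a median of 370.4 in the Foxp3 positive cells and from 0 to 1052 FPKM with a median of 0 in the negative cells. In KO-labelled cells it ran from 0 to 7255 FPKM with a median of 980.1 and from 0 to 965 FPKM with a median of 0. Positive cells either had Gzmb, mostly at a high level, or were at 0 like most negative cells. The differences were 6.14 (WT) and 7.36 (KO-labelled). Prf1 (perforin), which granzymes use to enter targets, was present in 11 of 46 WT against 3 of 35 KO-labelled cells with Foxp3, with differences of 1.51 (WT) and 0.61 (KO-labelled). Fgl2, a secreted fibrinogen-like protein, differed by 3.64 (WT) and 4.30 (KO-labelled), and Ebi3 (a subunit shared by IL-27 and IL-35) by 3.22 (WT) and 2.79 (KO-labelled). Il10, the anti-inflammatory cytokine, was present in a minority, 10 of 46 and 10 of 35 positive cells against 1 of 39 and 1 of 54 negative cells. Areg (amphiregulin, a growth factor of tissue repair) differed by 1.65 (WT) and 3.90 (KO-labelled). Entpd1 (CD39) and Nt5e (CD73), which together turn ATP into adenosine, differed by 2.30 (WT) and 0.61 (KO-labelled) for Entpd1 and 0.61 (WT) and 0.59 (KO-labelled) for Nt5e, under 1 in at least 1 pool. Ifng and Il2, cytokines of effector and helper T cells, were at 0 in all 81 positive cells. This allows shares of up to 6.52% in WT and 8.57% in KO-labelled cells. Neither gene counted as measured, so each was also present in under 20% of the Foxp3 negative cells of either pool. Their absence therefore does not by itself set the positive cells apart.

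**Figure D3:**
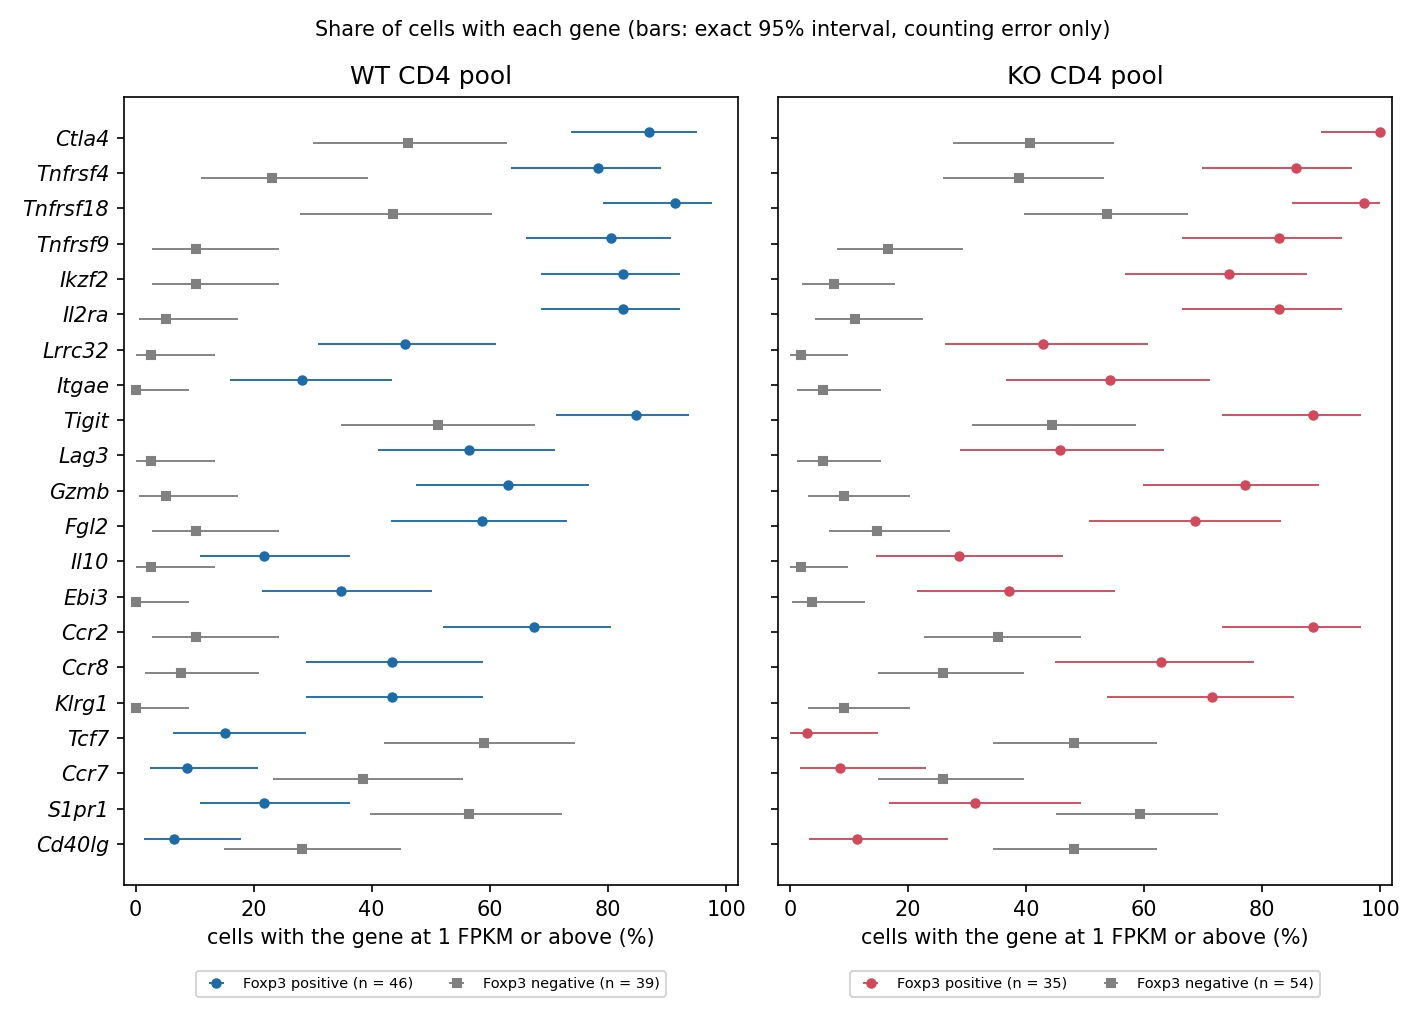
Share of cells with each gene at 1 FPKM or above in Foxp3 positive (circles) and Foxp3 negative cells (squares) of the WT and KO-labelled CD4 pools; bars are exact 95% intervals. Genes from Ctla4 to Klrg1 have the higher share in positive cells of both pools, and Tcf7, Ccr7, S1pr1 and Cd40lg the lower.

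Of the interleukin-2 receptor, the beta chain was higher along with the alpha chain. Il2rb differed by 2.57 (WT) and 2.70 (KO-labelled) and Il2rg, the common gamma chain, by 0.88 (WT) and 2.58 (KO-labelled). Cish, a feedback inhibitor that STAT5 induces, differed by 3.17 (WT) and 4.97 (KO-labelled) and was present in 63% against 28.2% of WT cells and 91.4% against 35.2% of KO-labelled cells. Stat5a differed by 0.72 (WT) and 2.10 (KO-labelled). The cytokine receptors as a list counted 3 higher and 1 lower of 23, beside 10.2% higher and 0.993% lower of all measured genes. After weighting 2 were higher and 2 lower. Without weighting, the third higher gene besides Il2ra and Il2rb was Il12rb1. It differed by 1.51 (WT) and 1.34 (KO-labelled), and by 1.74 and 0.40 after weighting. The 1 lower gene without weighting was Il18r1, a receptor chain for interleukin-18, by -1.60 (WT) and -1.37 (KO-labelled). Il7r, the receptor for interleukin-7, differed by -0.13 (WT) and -0.13 (KO-labelled). Il27ra, the gene named in the genotype, was present in 54.3% against 46.2% of WT cells and 62.9% against 42.6% of KO-labelled cells, with differences of 0.78 (WT) and 1.24 (KO-labelled).

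Transcription factors counted 4 higher and 3 lower of 28 measured genes, beside 10.2% higher and 0.993% lower of all measured genes. After weighting 3 were higher and 3 lower. Besides Ikzf2 and Ikzf4 the higher ones were Id2, an inhibitor of E proteins, by 1.69 (WT) and 2.18 (KO-labelled), and Prdm1 (Blimp-1), a factor of effector regulatory T cells, by 1.80 (WT) and 1.01 (KO-labelled). Prdm1 was under 1 in KO-labelled cells after weighting, with 1.82 and 0.48. The 3 lower ones were Tcf7 and Lef1, partners of beta-catenin in naive and stem-like T cells, and Satb1, a chromatin organiser that Foxp3 represses. Tcf7 was present in 15.2% against 59% of WT cells and 2.86% against 48.1% of KO-labelled cells. In WT cells Tcf7 ran from 0 to 539 FPKM with a median of 0 in the Foxp3 positive cells and from 0 to 1453 FPKM with a median of 89.5 in the negative cells. In KO-labelled cells it ran from 0 to 28.8 FPKM with a median of 0 and from 0 to 1809.6 FPKM with a median of 0. Only 1 of 35 KO-labelled positive cells had it. The differences were -3.58 (WT) and -3.45 (KO-labelled) for Tcf7, -1.01 (WT) and -1.41 (KO-labelled) for Lef1 and -1.71 (WT) and -1.92 (KO-labelled) for Satb1. Batf and Gata3 passed 1 in the KO-labelled pool and not in the WT pool, with 0.28 (WT) and 3.18 (KO-labelled) for Batf and 0.07 (WT) and 2.51 (KO-labelled) for Gata3. The difference between the pools was not tested.

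Homing receptors counted 5 higher and 3 lower of 23. Of the chemokine receptors, Ccr2 was higher by 4.45 (WT) and 4.90 (KO-labelled) and Ccr8, which marks regulatory T cells of tumours, by 3.20 (WT) and 3.39 (KO-labelled). Itgb7, the integrin chain that pairs with CD103, differed by 2.34 (WT) and 2.68 (KO-labelled). The 3 lower genes were Ccr7 and S1pr1, by which T cells enter and leave lymph nodes, and Itgb1. S1pr1 differed by -2.45 (WT) and -2.37 (KO-labelled), Ccr7 by -2.58 (WT) and -1.58 (KO-labelled) and Itgb1 by -2.16 (WT) and -2.73 (KO-labelled). Klrg1, a receptor of terminally differentiated lymphocytes, was at 0 in all WT negative cells and present in 20 of 46 WT against 25 of 35 KO-labelled cells with Foxp3.

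Naive and memory genes counted 2 higher and 5 lower of 13. The lower ones were Tcf7, Lef1, Ccr7, S1pr1 and Satb1, and the higher ones Cd27 and Ltb (lymphotoxin beta), Ltb by 3.86 (WT) and 1.92 (KO-labelled). Bcl2, the survival factor, differed by -2.55 (WT) and -0.47 (KO-labelled), and was present in 17 of 39 WT negative and 4 of 46 WT positive cells. Ms4a4b, a membrane protein of T cells, was lowest of the ranked genes by the difference nearer 0. In WT cells Ms4a4b ran from 0 to 1952 FPKM with a median of 0 in the Foxp3 positive cells and from 0 to 6702 FPKM with a median of 511 in the negative cells. In KO-labelled cells it ran from 0 to 1852 FPKM with a median of 0 and from 0 to 6619 FPKM with a median of 595. It was present in 30.4% against 71.8% of WT cells and 37.1% against 85.2% of KO-labelled cells, so most negative cells had it and most positive cells did not. The differences were -4.62 (WT) and -4.81 (KO-labelled). Gramd3, Arid5a and Vps37b followed after Tcf7, by -4.71 (WT) and -3.38 (KO-labelled) for Gramd3, -3.79 (WT) and -2.72 (KO-labelled) for Arid5a and -2.67 (WT) and -2.90 (KO-labelled) for Vps37b. Immediate early genes, which T cells switch on within minutes of a stimulus, were listed here together with heat shock genes and Btg1. This list counted 1 higher and 4 lower of 19: Egr1, Ier2, Btg1 and Btg2 were lower and Dusp1, a phosphatase, higher. The differences were -1.78 (WT) and -2.16 (KO-labelled) for Egr1, -2.68 (WT) and -1.45 (KO-labelled) for Ier2 and 1.45 (WT) and 3.02 (KO-labelled) for Dusp1. After weighting 5 were lower and 0 higher. Slfn1 and Slfn2, Schlafen genes of resting T cells, were also among the 15 lowest genes, by -1.68 (WT) and -2.57 (KO-labelled) for Slfn1 and -1.83 (WT) and -1.78 (KO-labelled) for Slfn2. Of 4 measured helper cytokine genes, Fasl, the ligand of the death receptor Fas, was lower besides Cd40lg, by -1.42 (WT) and -1.80 (KO-labelled).

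Glycolysis genes counted 10 higher and 0 lower of 14, and 2 higher and 0 lower after weighting, Gpi1 and Hif1a. Pgk1 (phosphoglycerate kinase) differed by 3.75 (WT) and 2.24 (KO-labelled), and by 2.59 and 0.08 after weighting. Hif1a, the factor of the response to low oxygen, differed by 1.51 (WT) and 2.80 (KO-labelled), and by 1.01 and 2.57 after weighting. S100 and migration genes counted 11 higher and 1 lower of 15 and 4 higher and 1 lower after weighting. Vim (vimentin) differed by 4.70 (WT) and 2.87 (KO-labelled) and Lgals1 (galectin-1) by 3.86 (WT) and 2.85 (KO-labelled). Ribosomal protein genes counted 0 higher and 0 lower of 26, with medians of -1.25 and -0.24, and 0 higher and 11 lower after weighting. The counts of these 3 lists differed between the weighted and unweighted values, and positive cells had more detected genes. Respiratory chain genes counted 5 higher and 0 lower of 25 and 0 higher and 0 lower after weighting. Interferon-stimulated genes counted 6 higher and 0 lower of 31: Ly6a, Tap1, Gbp3, Gbp7, Isg20 and Ifi27l2a. Ly6a (Sca-1) differed by 3.84 (WT) and 3.82 (KO-labelled). Tap1, which carries peptides to MHC class I, differed by 3.13 (WT) and 2.07 (KO-labelled), and by 2.88 and 0.12 after weighting. Cell cycle genes counted 2 higher and 0 lower of 19, Birc5 and Mcm5, and 0 after weighting. This is near the 10.2% higher and 0.993% lower of all measured genes. Mki67 was found in 6 of 46 and 7 of 35 positive cells. Traf1, an adaptor of TNF receptors, differed by 3.06 (WT) and 2.51 (KO-labelled), and Nfil3 by 2.48 (WT) and 1.54 (KO-labelled).

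Inside the Foxp3 positive subset, cells differed widely. The median SD over cells of log2(FPKM + 1) was 2.71 in WT and 2.89 in KO-labelled cells over 4893 genes. Foxp3, cut from below by the threshold, had an SD of 1.57 and 1.37. Gzmb had an SD of 5.22 and 4.84. Of the 22 effector regulatory T cell genes (Icos, Klrg1, Il1rl1, Batf and others), WT positive cells had 1 to 15 with a median of 9, and KO-labelled positive cells 0 to 19 with a median of 12. The negative cells had medians of 3 and 5. The 17 suppression genes had a median of 7 in positive cells of each pool, from 0 to 10 in WT and from 3 to 12 in KO-labelled cells.

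**Figure D4:**
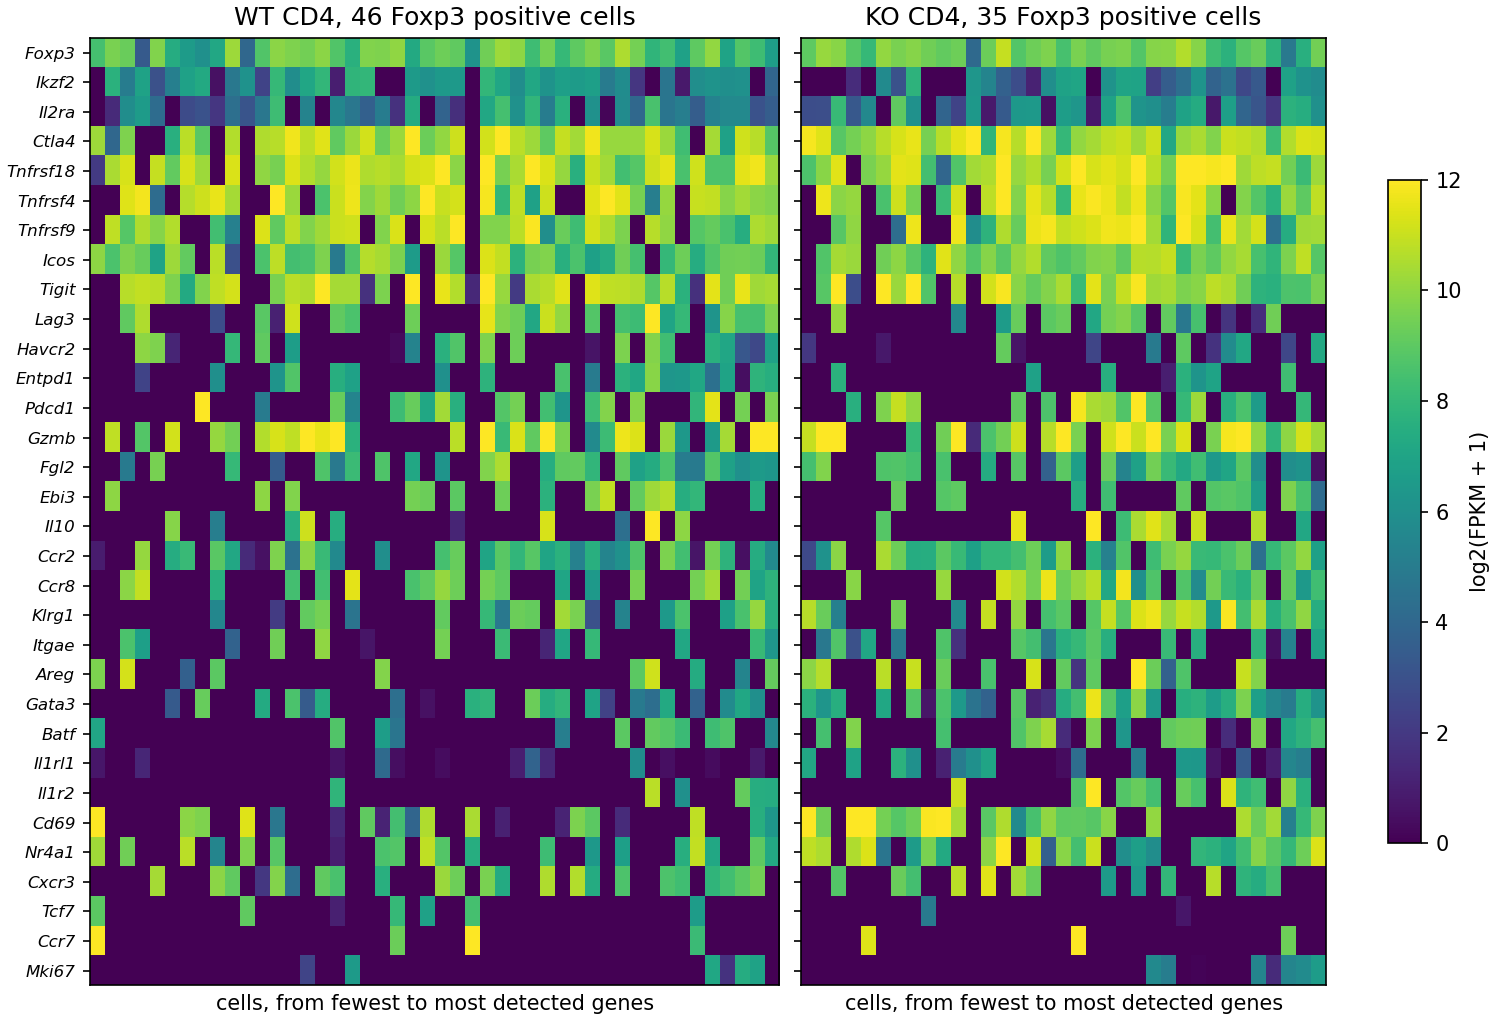
log2(FPKM + 1) of 32 genes (rows) in the 46 WT and 35 KO-labelled Foxp3 positive cells (columns, ordered by detected genes). Ctla4, Tnfrsf18, Icos and Tigit are present in most cells, and Areg in some. Gzmb is present in 29 WT and 27 KO-labelled cells, Klrg1 in 20 and 25, and Ccr8 in 20 and 22. Mki67 is present mainly in cells with many detected genes.

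Pairs of genes across cells are given as description, and they share each cell's depth and library. The named pairs are a few of those computed. Ccr2 and Tigit went together, with r = 0.52 in WT and 0.45 in KO-labelled cells (n = 46 and 35 cells). In KO-labelled cells Ccr2 was present in 28 of 31 cells with Tigit and in 3 of 4 without. Presence of Tigit thus hardly varied there. Lag3 and Tigit had r = 0.41 in WT and 0.39 in KO-labelled cells. Cd69, an early activation and retention receptor, ran against Il2ra (r = -0.37 in WT and -0.43 in KO-labelled cells) and against Lag3 (r = -0.43 in WT and -0.38 in KO-labelled cells). Ccr7 and Ccr2 had r = -0.38 in WT and -0.47 in KO-labelled cells. Ccr7 was present in only 4 of 46 WT and 3 of 35 KO-labelled cells, so both values rest on few cells. Gzmb and Ccr2 went together in WT cells and weakly in KO-labelled ones, with r = 0.63 in WT and 0.13 in KO-labelled cells. In WT, Ccr2 was present in 26 of 29 cells with Gzmb and in 5 of 17 without. The cells with Mki67, a gene of dividing cells, had a median of 3370.0 detected genes in WT and 4041 in KO-labelled cells, against 1867 and 2007 in cells without it. Cells with Klrg1 had a median of 2312 detected genes in WT against 1660 without it.

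Between genotypes, inside the Foxp3 positive cells, the KO-labelled cells had a higher mean for 1052 of 4893 measured genes (21.5%) and 2.31% of them had a lower mean, by 1 or more. All measured genes together had a median of 0.42, and KO-labelled cells had more detected genes. After weighting 702 genes (14.3%) were higher and 5.74% of the measured genes lower, with a median of 0.19. Of the genes past 1, 71.4% were then higher, against 90.3% without the weighting. In cells with at least 2000 genes (19 WT, 21 KO-labelled) 56.8% of the genes past 1 were higher. Il27ra did not mark the label: it was present in 25 of 46 WT against 22 of 35 KO-labelled cells, and it ran from 0 to 844 FPKM with a median of 11.1 in WT and from 0 to 334.1 FPKM with a median of 25.6 in KO-labelled cells. The difference was 0.05. Which part of Il27ra was deleted, and where its reads lie, is not given in the sources used here, so these values do not check the knockout. Every direction below is that of the pool labelled KO. Counts of lists below stand beside 21.5% higher and 2.31% lower of all measured genes, and 14.3% and 5.74% after weighting.

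Interferon-stimulated genes lay mostly on the lower side: 2 of 29 had a higher mean in KO-labelled cells by 1 or more and 9 a lower one, with a list median of -0.48 beside 0.42 for all genes. After weighting it was 1 and 15, with a median of -1.10. Igtp (Irgm3), a GTPase of the cell-autonomous defence against intracellular pathogens, was present in 30 of 46 WT against 15 of 35 KO-labelled cells, or 65.2% (49.8% to 78.6%) and 42.9% (26.3% to 60.6%). Igtp ran from 0 to 2993 FPKM with a median of 312.4 in WT and from 0 to 1469.8 FPKM with a median of 0 in KO-labelled cells. The median WT cell had Igtp and the median KO-labelled cell was at 0, and cells at 0 occurred in both. The difference was -2.64, with SDs over cells of 4.61 and 4.22, against -1.71 in Foxp3 negative cells. Its relatives Iigp1 (-2.38), Tgtp2 (-2.12), Tgtp1 (-1.27), Irgm1 (-1.20) and Irgm2 (-1.09) were lower too, as were Gbp4 (-1.60), Gbp6 (-1.11) and Nlrc5, the activator of MHC class I genes (-1.42). Ifi47, a further GTPase of this family, differed by -1.94. Irf1, a transcription factor of the interferon response, differed by -0.67. Ifi27l2a (1.77) and Psmb8 (1.60) went the other way, and Psmb8 turned to -0.12 after weighting. In negative cells the list's median was -0.35.

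Of 25 measured IL-27 pathway genes, 5 were higher and 4 lower, beside 21.5% higher and 2.31% lower of all measured genes. The list median was 0.05 beside 0.42 for all genes, and -0.54 beside 0.19 after weighting, with 16 of 25 below 0. Socs3, a feedback inhibitor induced through gp130 and Stat3, was the lowest. Socs3 ran from 0 to 2222 FPKM with a median of 0.445 in WT and from 0 to 431 FPKM with a median of 0 in KO-labelled cells. It was present in 22 of 46 WT against 7 of 35 KO-labelled cells, or 47.8% (32.9% to 63.1%) and 20% (8.44% to 36.9%), and the difference was -2.17. In Foxp3 negative cells, where 32 of 39 WT and 19 of 54 KO-labelled cells had it, the difference was -4.53. Tbx21 (-1.04), Irf8 (-1.38) and Tyk2 (-1.04) were lower, and Cish (1.84), Batf (1.91), Ikzf3 (1.44), Jak1 (1.12) and Il10 (1.18) higher. Jak1 was at -0.13 in cells with at least 2000 genes. After weighting 4 were higher and 5 lower. Stat3 differed by 0.25, Prdm1 by -0.33 and Maf by -0.40.

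The 15 lowest genes of this comparison included Nkg7, Ccl5, Serpina3g and Gimap7. Nkg7, a granule membrane protein, had the lowest difference of the ranked genes. Nkg7 ran from 0 to 10548 FPKM with a median of 453 in WT and from 0 to 2218 FPKM with a median of 0 in KO-labelled cells. It was present in 25 of 46 WT against 10 of 35 KO-labelled cells, and the difference was -3.23. Ccl5, a chemokine of activated T cells, differed by -2.33 and Prf1 by -1.54, while Gzmb was higher, by 1.55. The protease inhibitors Serpina3g and Serpina3f differed by -3.02 and -2.15, with Serpina3g present in 24 of 46 WT against 8 of 35 KO-labelled cells. Gimap7 and Gimap3, GTPases of lymphocytes, differed by -2.75 and -1.93. Of the co-inhibitory receptors, 4 were higher and 3 lower of 9: Lag3 (-1.47), Havcr2 (-1.55) and Entpd1 (-1.48) were lower, and Ctla4 (1.64), Cd200r1 (1.81), Cd5 (1.35) and Pdcd1 (1.01) higher. Pdcd1, Cd5 and Ctla4 were at 0.37, 0.23 and 0.62 after weighting. Havcr2 was present in 19 of 46 WT against 10 of 35 KO-labelled cells.

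**Figure D5:**
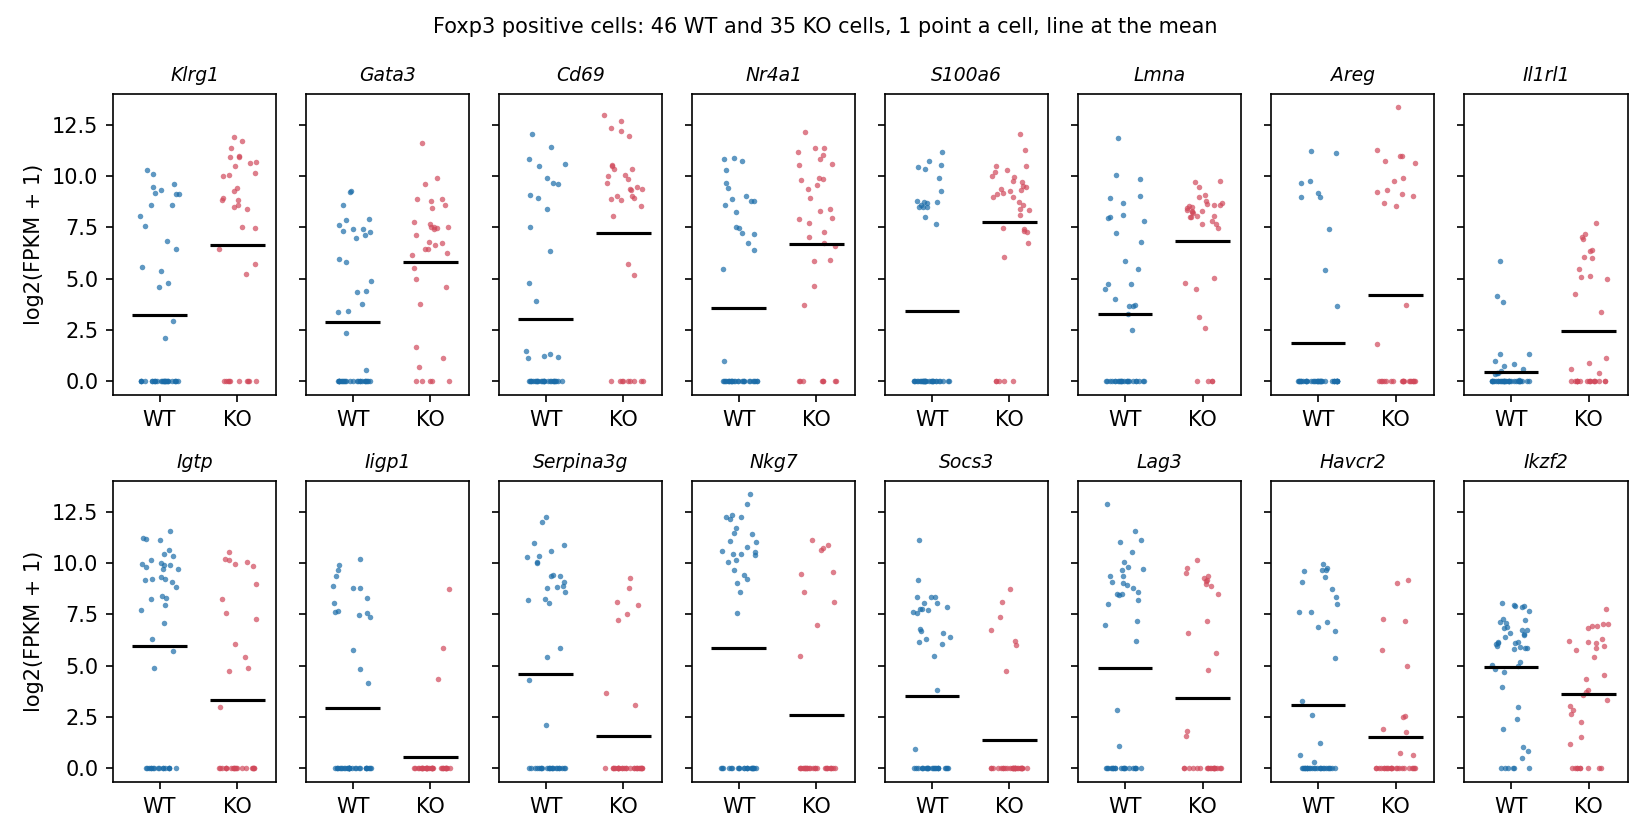
log2(FPKM + 1) of 16 genes in the Foxp3 positive cells of the WT and KO-labelled pools, 1 point a cell, with a line at the mean. The means of Klrg1, Gata3, Cd69, Nr4a1, S100a6, Lmna, Areg and Il1rl1 are higher in KO-labelled cells and those of Igtp, Iigp1, Serpina3g, Nkg7, Socs3, Lag3, Havcr2 and Ikzf2 lower, with overlap in every gene.

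Effector regulatory T cell genes counted 11 higher and 2 lower of 21, with a median of 1.18, and 5 of 21 were below 0. After weighting 11 were higher and 3 lower, with a median of 1.22, and 7 of 21 were below 0. The 2 lower genes without weighting were Lag3 and Entpd1, given above with the co-inhibitory receptors. Klrg1 was the highest. Klrg1 ran from 0 to 1279 FPKM with a median of 0 in WT and from 0 to 3906 FPKM with a median of 380.4 in KO-labelled cells. It was present in 20 of 46 WT against 25 of 35 KO-labelled cells, or 43.5% (28.9% to 58.9%) and 71.4% (53.7% to 85.4%). The difference of means was 3.45, with SDs over cells of 4.03 and 4.54. Gata3, the factor of type 2 immunity that is also found in regulatory T cells of barrier tissues, was present in 21 of 46 WT against 29 of 35 KO-labelled cells, with a difference of 2.90. Il1rl1 (ST2, the receptor for interleukin-33) was present in 5 of 46 WT against 15 of 35 KO-labelled cells, with a difference of 1.96. Il1r2, a decoy receptor for interleukin-1, differed by 2.41, Areg by 2.35, Cd81 (a tetraspanin) by 2.44, Rora by 2.44 and Ccr8 by 1.81. Areg, Il1rl1, Gata3 and Klrg1 are known together from regulatory T cells of non-lymphoid tissue. In Foxp3 negative cells the differences were 0.66 for Klrg1, which was at 0 in all WT negative cells, 0.45 for Gata3 and 0.10 for Areg. Over the 9 genes of the list measured in negative cells the median was 0.66, beside 0.21 for all genes. After weighting the list's median there was 0.44.

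Of the 12 identity genes 3 were higher and 1 lower, beside 21.5% and 2.31% of all measured genes, and 1 was higher and 1 lower after weighting. Ikzf2 was the lower one: it ran from 0 to 263.1 FPKM with a median of 63.6 in WT and from 0 to 214.2 FPKM with a median of 12.3 in KO-labelled cells. The difference was -1.32. Ctla4, Itgae (1.62) and Capg (1.54) were higher, Capg at 0.70 after weighting, and Tnfrsf9 (0.30), Tnfrsf18 (0.74), Tnfrsf4 (0.82), Il2ra (0.66) and Lrrc32 (0.31) differed by under 1. The mean of Foxp3 itself was 8.52 in WT and 8.98 in KO-labelled positive cells.

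Activation and stress genes were higher: of 19 immediate early and heat shock genes, 13 were higher and 0 lower, with a median of 1.35, and 8 and 0 after weighting. In Foxp3 negative cells this list's median was 0.13, beside 0.21 for all genes. The shares of all measured genes were 21.5% higher and 2.31% lower, and 14.3% and 5.74% after weighting. Cd69, an activation receptor counted with the homing genes, was present in 20 of 46 WT against 26 of 35 KO-labelled cells. Cd69 ran from 0 to 4267 FPKM with a median of 0 in WT and from 0 to 8109.5 FPKM with a median of 529 in KO-labelled cells. The difference was 4.19 and 4.14 after weighting. Nr4a1, induced by T cell receptor signals, differed by 3.15, Ier2 by 2.86, Nfkbia by 2.83, Fos by 2.45 and, outside the list, the small GTPase Gem by 3.06. T cell receptor signalling genes counted 7 higher and 0 lower of 19, and 7 and 0 after weighting. Their median was 0.83 in positive and 0.89 in Foxp3 negative cells, and 0.42 and 0.67 after weighting. Lat, the adaptor at the receptor, differed by 3.0 and the kinase Zap70 by 1.29. NF-kB genes counted 6 higher and 0 lower of 17, and 6 and 1 after weighting, with Nfkbiz (2.52), Tnfaip3 (A20, 1.98) and Nfkb1 (1.54) among them. The NF-kB median was 0.78 in positive and 0.36 in negative cells. S100 and migration genes counted 10 higher and 0 lower of 15, and 7 and 3 after weighting. The S100 list's median was 1.77 in positive and 1.66 in Foxp3 negative cells, and 0.79 and 1.19 after weighting, so it was not particular to positive cells. S100a6, a calcium-binding protein, was present in 17 of 46 WT against 30 of 35 KO-labelled cells, with a difference of 4.36 and 4.40 after weighting. S100a10 differed by 3.18, Crip1 by 3.28 and Emb (embigin) by 3.54. S100a4 differed by 1.94 in all cells and by -0.12 in cells with at least 2000 genes. H2afz, a histone variant, and Lmna, a nuclear lamin, had the largest positive gaps from the negative cells among ranked genes: 4.55 in positive and -0.57 in negative cells for H2afz, 3.59 and -0.22 for Lmna.

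Ribosomal protein genes counted 20 higher and 0 lower of 26, and 4 and 0 after weighting, where Rps9 turned to -0.58 and Rpl3 to -0.13. Respiratory chain genes counted 13 and 0 of 25, and 6 and 0 after weighting. Homing genes counted 12 and 0 of 21, with Itgb7 (2.94), Ccr2 (2.0) and Ccr4 (1.97) among them, and 10 and 1 after weighting. Of these, Itgb2 was 1.77 in all cells and -0.62 in cells with at least 2000 genes. The list medians were 1.37 (ribosomal), 1.03 (respiratory chain) and 1.19 (homing) in positive cells, and 0.31, 0.57 and 0.80 in negative cells. Of all measured genes 21.5% were higher and 2.31% lower, and 14.3% and 5.74% after weighting. Detected genes per cell were higher in the KO-labelled pool, and their part in these lists was not tested.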

How the data were processed

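Single T cells were profiled by Smart-seq2, per the labels' protocols. The authors deposited 1 table of FPKM values per gene and cell, scaled between cells by TMM, per the labels. Bowtie, RSEM and the build mm10 are named, per the submitters' processing notes, and their versions and settings are not given in the sources used here. FPKM holds no read counts, so depth is given as detected genes. The table had 23366 entries for 375 columns. 4 columns named as populations of cells were not used, and 4 entries whose symbol occurs more than once were dropped, for 23362 genes in all. Of the listed genes, 4 were matched by older symbols and 7 were not matched. Genes of the T cell receptor beta variable segments were not found, so that planned description was not made.

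A cell was kept when 1000 or more genes reached 1 FPKM, and no doublet caller was run. The log2(FPKM + 1) values were computed here from the deposited FPKM, with a pseudocount of 1. A gene counted as higher or lower when mean values differed by 1 or more (in both pools for Foxp3 positive against negative cells). A gene was measured when it reached 1 FPKM in 20% or more of the cells on 1 side. Weighted values split cells at the quartiles of detected genes over all CD4-sort cells, used strata with at least 3 cells on each side and weighted them by their cells. Shares carry exact Clopper-Pearson 95% intervals, and a count of 0 allows 3 counts of the total. Named genes were the given markers, the members of the lists with the largest differences first, the 15 highest and lowest genes of both comparisons, and the 5 highest and lowest of the difference between them. Predicted genes, pseudogenes and receptor gene segments were left out of these rankings. Members and lists were chosen with earlier results of these data known. Promoters and motif matches came from RefSeq windows. Python 3.11.15, numpy 2.4.6, pandas 2.3.3, scipy 1.17.1 and matplotlib 3.10.9 were used, and the scripts were checked on simulated data. Alternatives covered the Foxp3 and gene filters, the pseudocount, rescaling, weighting and cells with markers of another type. A few genes of the rule for named genes are not reported here.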

Additional observations from a re-analysis of the deposited data

Results flagged for a closer look

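The KO-labelled minus WT difference of mean log2(FPKM + 1) had opposite signs in Foxp3 positive and Foxp3 negative cells for 10 genes, picked as the 5 lowest and 5 highest gaps. With 1 pool a genotype, none of these gaps was tested. Cxcr6, a chemokine receptor of tissue T cells, differed by -0.67 in Foxp3 positive and 3.27 in negative cells, a gap of -3.94. It was present in 12 of 46 WT and 7 of 35 KO-labelled positive cells, and in 7 of 39 and 27 of 54 negative cells. Ccl5 differed by -2.33 in Foxp3 positive and 1.30 in negative cells, a gap of -3.63. Nkg7 differed by -3.23 in Foxp3 positive and 0.32 in negative cells, a gap of -3.55. Gimap7 and Ms4a6b had gaps of -3.46 and -3.10, with -2.75 and -2.16 in positive cells and 0.71 and 0.94 in negative cells.

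In the other direction, H2afz differed by 4.55 in Foxp3 positive and -0.57 in negative cells, a gap of 5.11, and Lmna by 3.59 in Foxp3 positive and -0.22 in negative cells, a gap of 3.81. Cd44, the hyaluronan receptor of activated T cells, differed by 2.27 in Foxp3 positive and -1.16 in negative cells, a gap of 3.43. Cwc15, a splicing factor, and Chchd2, a mitochondrial protein, had gaps of 3.33 and 3.16, with 2.31 and 1.68 in positive and -1.02 and -1.48 in negative cells.

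Outside the CD4 sort, 4.65% of the KO-labelled CD8-sort cells (4 of 86) had Foxp3 at 1 FPKM or above, against 0 of 90 WT CD8-sort cells. All 4 were listed at 0 for Cd4, and 1, 3, 5 and 5 of the 5 regulatory T cell markers were present in them.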

How the results depend on the processing

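No paired analysis was possible because each genotype is 1 pool of cells with no replicate, and for the same reason no replicate could be left out. In cells with at least 2000 genes (19 WT and 21 KO-labelled positive, 6 and 16 negative) the Foxp3 positive share was 76% in WT and 56.8% in KO-labelled cells, and 1.91% of measured genes were lower in positive than in negative cells. The share of genes lower in KO-labelled positive cells was 11.9% there, 4.19% without cells with markers of another type, 4.5% in Cd4 positive, Cd8a and Cd8b1 negative cells, 3.54% after rescaling each cell and 5.74% after weighting. After weighting 3.64% were higher and 2.55% lower in positive cells, and 39.6% of the 573 genes called without weighting were called again. The 4 shares (higher and lower in positive cells, higher and lower in KO-labelled cells) were 20.4%, 1.79%, 36.5% and 5.58% with a pseudocount of 0.1, 3.56%, 0.292%, 6.09% and 0.552% with a pseudocount of 10, and 4.87%, 0.311%, 9.67% and 1.35% for shares of cells that differ by 20 points. Leaving out negative cells with 2 or more markers gave 16.9% higher. The Foxp3 thresholds, the other gene filters and leaving out cells over 4000 genes, the last chosen after seeing the data, kept the counts within 1.5 times.

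Signs turned for 12 gene values that had passed 1 and 2 list medians that lay 0.5 or more from the median of all genes. KO-labelled minus WT, at 2000 genes or more, was -0.19 for Cox5a, -0.62 for Itgb2, -0.13 for Jak1, -1.80 for Ms4a4b, -0.048 for Rps18, -0.19 for Rps7, -0.12 for S100a4 and -0.10 for Tuba1b. After weighting it was -0.12 for Psmb8, -0.13 for Rpl3 and -0.58 for Rps9. Foxp3 positive minus negative was -0.18 for Aldoa in Cd4 positive, Cd8 negative cells. The respiratory chain median relative to all genes was -0.52 at 2000 genes or more and -0.38 after weighting. The cause of these changes was not tested. Of the other gene values, 8988 kept their side of 1, of which 3.13% turned sign while under 1, 570 dropped below it and the rest passed it, 8 of them with the opposite sign. Of 516 list medians that kept their side of 0.5, 47 turned sign.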
